A study of Homo sapiens with 6 samples.

Results

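Non-muscle myosin II is the motor that pulls on actin filaments in cells other than muscle, and the 10 genes described here encode its chains, the actins it pulls on and the proteins that crosslink those filaments. They are MYH9 and MYH10 (heavy chains), MYL6 (essential light chain), MYL9, MYL12A and MYL12B (regulatory light chains), ACTB and ACTG1 (cytoplasmic actins), and ACTN1 and ACTN4 (non-muscle alpha-actinins). The genes were given as a list of symbols, drawn up with earlier results of these data known, and each matched 1 of the 60671 genes of the expression tables. All 10 had enough reads to be tested.

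The libraries were from KGN cells, a human granulosa cell tumour line, genome-edited so that both alleles of FOXL2 were wild type (genotype FOXL2 WT/WT). FOXL2 is a forkhead transcription factor of ovarian granulosa cells. All 6 libraries came from this edited line. In 3 libraries the cells had received 30 pmol of siRNAs against FOXL2 (knock-down, KD), and in 3 the same amount of a scrambled control siRNA, with RNA taken 30 h after transfection. Each KD library had its own pool of 3 siRNAs, so the KD libraries are called pools 1, 2 and 3. One siRNA was common to all pools. The KD libraries were thus separate transfections with different siRNA mixtures. The labels do not say whether the control libraries came from separate cultures, so their spread may be technical, and the p-values measure only the spread between these 6 libraries.

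The libraries held 25025168, 24592016 and 27316167 gene counts in the controls and 27382590, 23843192 and 28791954 in KD pools 1, 2 and 3. FOXL2 mRNA stood at 5.36, 5.28 and 5.72 TPM (an abundance per transcript length that sums to the same total in every library) in the controls and at 1.41, 1.90 and 1.27 TPM in the KD pools. Its mean normalized CPM (counts scaled to the size of each library, not per length) in the KD pools was 27.3% of the control mean, and its log2 fold change was -1.88 ± 0.14 (SE, n = 3 per condition; edgeR quasi-likelihood test, Benjamini-Hochberg adjusted p = 0.00267). KD pool 2 stood apart from the other libraries. Its score on the first principal component, which held 34.8% of the variance of the log2 CPM, was 30.6, and those of the other 5 libraries ran from -13.2 to 1.22.

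The cells were checked against markers. Of 14 granulosa cell markers, 7 had a mean of at least 1 TPM, among them NR5A1 (34.6 to 39.2 TPM), the follistatin gene FST (62.5 to 73.0 TPM, the most abundant of the list) and AMH (19.2 to 31.9 TPM). FSHR and WT1 were at 0 in every library, and CYP19A1, the aromatase gene, did not pass 0.68 TPM. The label of granulosa cell line was thus met by some markers only. The list includes FOXL2, the target of the siRNAs. Its summed level, with FOXL2, was 190, 198 and 188 TPM in the controls and 165, 183 and 187 TPM in the KD pools.

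A molecule of non-muscle myosin II contains a pair of heavy chains, each with a motor head that binds actin and splits ATP, and each heavy chain carries an essential and a regulatory light chain. Phosphorylation of the regulatory light chain lets the molecules assemble into filaments and pull. Alpha-actinins tie actin filaments into the bundles on which the motor works, and link them to adhesions. In cells that do not belong to muscle this machinery is known for shaping the cell body, for migration and for cell division.

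The genes lie on 8 chromosomes (positions on GRCh38, GENCODE annotation, used for orientation only). MYH9 is on the minus strand of chromosome 22 at 36281277-36388067. Its principal coding transcript, chosen by the mark in the annotation and then by coding length, has 41 exons. MYH10 is on the minus strand of chromosome 17 at 8474205-8630761, also with 41 exons. ACTG1 is on the same chromosome. MYL12A (chromosome 18, 3247481-3256236) and MYL12B (chromosome 18, 3261479-3278431) are neighbours on the plus strand. The coding parts of this pair were 95.7% identical over 513 aligned bases, with 22 differences. Differences in the coding part help to assign a 75-base read from that part to one gene or the other. The stretch of 60 coding bases in which the genes differed most is shown. It runs from coding base 175 in MYL12A and from base 178 in MYL12B, and the 10 differing bases are in capitals.
MYL12A: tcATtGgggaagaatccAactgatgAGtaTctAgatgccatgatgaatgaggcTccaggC
MYL12B: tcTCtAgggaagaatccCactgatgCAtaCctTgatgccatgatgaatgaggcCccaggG
Over the last 60 coding bases the genes did not differ. Nevertheless, only 3 of the 1155 possible 75-base reads of the principal MYL12A transcript occurred unchanged in MYL12B. The actins ACTB and ACTG1 shared 91.3% of their 1125 coding bases, with 98 differences, and no 75-base read. The highest share of reads found in any other gene was 2.71%, for ACTB, and most of those matched ACTBP2. For MYH9 it was 0.281%, all in MYH11.

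The control levels spanned a wide range. ACTB was the fourth most abundant of all genes by mean control TPM, at 10259 ± 378 TPM (SD, n = 3), and ACTG1 followed at 5765 ± 415 TPM. MYL6, the essential light chain, had 3160 ± 95.1 TPM and ACTN4 1264 ± 118 TPM. Below these came MYH9 with 840 ± 58.8 TPM, MYL9 with 782 ± 97.4 TPM, MYL12A with 652 ± 12.4 TPM, MYL12B with 623 ± 4.55 TPM and ACTN1 with 493 ± 38.1 TPM. MYH10 was far lower, at 31.7 ± 1.44 TPM.

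In this order, only MYH9 and MYL9 had control ranges that overlapped, and MYH9 was the higher of them in the 3 controls and the lower in the 3 KD pools. MYL12A and MYL12B were close, but their control ranges did not overlap (lowest MYL12A 644 TPM, highest MYL12B 626 TPM), and MYL12A was higher in 5 of 6 libraries. The 10 genes took 2.27 to 2.52% of all TPM. MYH9 ranked 177 among all genes, and MYH10 4604.

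**Figure D1:**
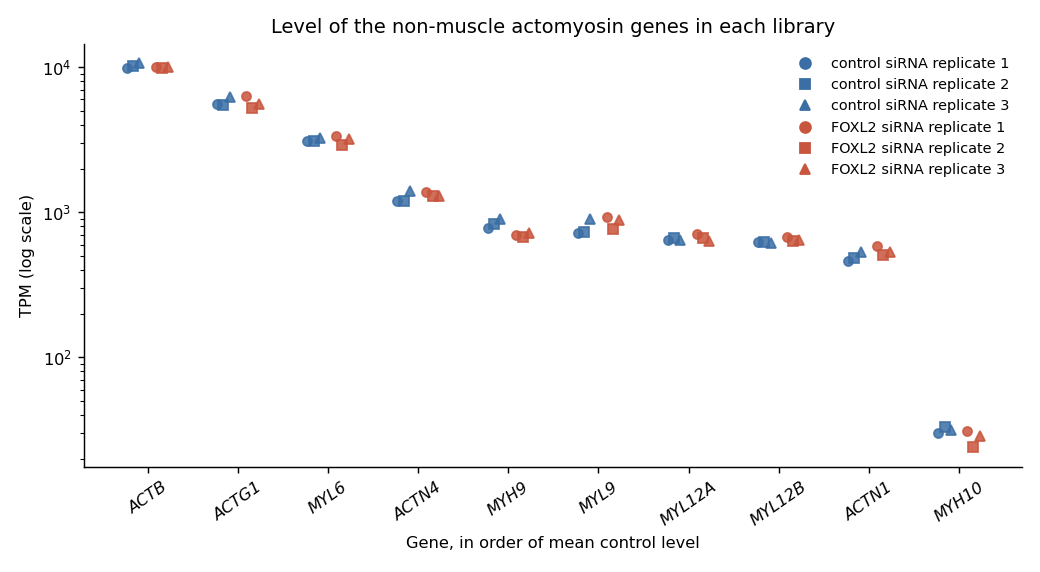
TPM of each of the 10 genes (log scale) in each control siRNA library (blue) and FOXL2 siRNA library (red), genes in order of mean control level. ACTB (9938 to 10675 TPM) and MYH10 (24.0 to 33.2 TPM) mark the ends of the range, and for MYH9 the red points (676 to 721 TPM) lie below the blue ones (782 to 899 TPM).

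MYH9 was the member that differed most between conditions. Its level was 782, 837 and 899 TPM in the controls and 697, 676 and 721 TPM in KD pools 1, 2 and 3. In normalized CPM it was 3263, 3374 and 3751 in the controls and 2841, 2644 and 2984 in the KD pools. All KD libraries were below all controls on both scales, and the KD mean was 81.5% of the control mean in CPM. In bulk RNA such as this, fewer cells that express a gene and less of its RNA per cell cannot be told apart.

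The log2 fold change of MYH9 was -0.29 ± 0.08 (SE, n = 3 per condition; 95% interval -0.47 to -0.12). In edgeR its unadjusted p was 0.00360 and its adjusted p 0.160, so that it was not called at the threshold of 0.05. DESeq2 did call it, with a log2 fold change of -0.30 and an adjusted p of 0.0117, and also when the effective transcript length of each library was taken into account (adjusted p = 0.0193). The exact permutation test of the CPM gave p = 0.1 (two-sided), the smallest that 3 against 3 libraries allow.

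**Figure D2:**
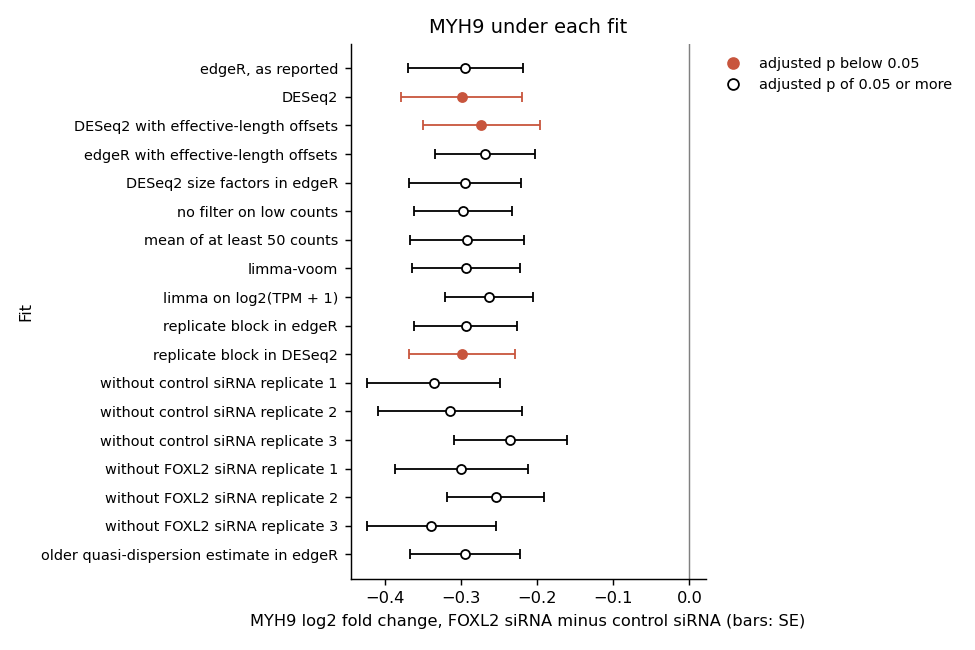
log2 fold change of MYH9 (FOXL2 siRNA minus control siRNA) with its SE under each fit. All values lie between -0.34 and -0.24, and the 3 filled red points, all from DESeq2, have an adjusted p below 0.05.

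Across all 15663 genes tested, edgeR called 40 DEGs (0.255% of those tested), 23 lower and 17 higher in the KD pools, and none of them was a member. At an unadjusted p below 0.05, 1 of the 10 members was lower and none higher, while 13.5% of all genes tested were below this p in either direction and 6.88% were below it and lower. DESeq2 called 3.06% of the 11522 genes to which it gave an adjusted p (353 DEGs) and 1 of the 10 members. With effective-length offsets it called 2.86% of 12087 genes (346 DEGs) and again 1 member. In both cases this was MYH9.

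The normalized CPM of the conditions did not overlap for 2 of the 10 members, MYH9 and MYH10, against 20.5% of all genes tested, so that this count was at the background. The median log2 fold change of the members was 0.03, with 4 below 0 and 6 above. Over all genes tested the median was 0.01. In size, the median change was 0.04 in the members and 0.12 over all genes tested.

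MYH10, the heavy chain of non-muscle myosin IIB, had 102, 106 and 107 normalized CPM in the controls and 101, 91.1 and 94.8 in the KD pools. The groups came within 1 CPM of each other. Its log2 fold change was -0.13 ± 0.06 (95% interval -0.27 to 0.01; edgeR adjusted p = 0.401). On the TPM scale the groups overlapped, with 30.3, 33.2 and 31.7 TPM in the controls and 31.3, 24.0 and 28.6 TPM in the KD pools. The effective length that RSEM assigned to MYH10 was 5989 bases in KD pool 2 and 4744 to 4992 bases in the other 5 libraries, which lowers its TPM there.

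MYH9 made up most of the heavy chain mRNA. Its share of MYH9 and MYH10 TPM was 96.3, 96.2 and 96.6% in the controls and 95.7, 96.6 and 96.2% in the KD pools. The groups overlapped and the difference was -0.20 percentage points (exact permutation test, two-sided p = 0.4). In expected counts, which are not per length, the share was 97.0, 97.0 and 97.2% in the controls and 96.6, 96.7 and 96.9% in the KD pools. There the groups did not overlap, and the difference was -0.34 percentage points (exact permutation test, p = 0.1, the smallest possible). The third non-muscle heavy chain gene, MYH14, had no count in any library, which allows at most 0.104 to 0.126 CPM per library (3 counts; counting error only).

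Among the regulatory light chains, MYL9 had 550, 565 and 696 normalized CPM in the controls and 733, 580 and 675 in the KD pools. These ranges overlapped widely, and its log2 fold change was 0.13 ± 0.11 (edgeR adjusted p = 0.625). With each library left out in turn it ran from 0.056 (without pool 1) to 0.25 (without control 3). MYL12A and MYL12B were the steadiest of the light chains over the controls. MYL12A had 332, 341 and 338 CPM in the controls and 367, 326 and 327 in the KD pools (log2 fold change 0.01 ± 0.06, edgeR adjusted p = 0.957). For MYL12B the values were 416, 413 and 422 CPM and 456, 399 and 431 CPM (0.04 ± 0.06, adjusted p = 0.820 in edgeR). In both genes pool 1 was the highest of the 6 libraries.

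As the MYL12 pair is so alike in sequence, its counts were also summed and tested as 1 gene. The log2 fold change of the sum was 0.03 (edgeR adjusted p = 0.882). MYL12A made up 51.2 ± 0.41% of the pair's TPM in the controls and 50.7 ± 0.86% in the KD pools (SD, n = 3; exact permutation test, p = 0.6).

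MYL6, which binds the neck of the heavy chain beside the regulatory light chain, had 1108, 1116 and 1208 normalized CPM in the controls and 1222, 985 and 1163 in the KD pools. The KD pools spread more widely than the controls and enclosed them. Its log2 fold change was -0.03 ± 0.09 (95% interval -0.22 to 0.17; edgeR adjusted p = 0.924). MYL6B, its close relative, had 55.9, 50.7 and 57.8 TPM in the controls and 54.7, 50.5 and 52.8 TPM in the KD pools, and was not called either (log2 fold change -0.13 ± 0.09, edgeR adjusted p = 0.559).

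The cytoplasmic actins stayed at like levels in both conditions. ACTB had 10346, 10516 and 11379 normalized CPM in the controls and 10719, 10085 and 10531 in the KD pools. Its log2 fold change was -0.04 ± 0.07 (95% interval -0.19 to 0.11; edgeR adjusted p = 0.828). ACTG1 had 5118, 4951 and 5464 CPM in the controls, and 6021 in pool 1 against 4879 and 5139 in pools 2 and 3. Pool 1 was above all controls and pool 2 below them. The log2 fold change of ACTG1 was 0.05 ± 0.09 (95% interval -0.15 to 0.24, edgeR adjusted p = 0.855), and its sign turned with effective-length offsets (-0.01).

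ACTB made up 64.0 ± 0.93% of the TPM of both actins in the controls and 63.6 ± 2.12% in the KD pools (SD, n = 3; exact permutation test, p = 0.9). The difference was -0.45 percentage points in TPM and -1.27 in expected counts, where the groups overlapped too (exact permutation test, p = 0.4). Summed as 1 gene, ACTB and ACTG1 had a log2 fold change of -0.01 (edgeR adjusted p = 0.965).

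The alpha-actinins were not called. ACTN1 had 958, 981 and 1142 normalized CPM in the controls and 1218, 1024 and 1109 in the KD pools, with a log2 fold change of 0.12 ± 0.09 (95% interval -0.08 to 0.32; edgeR adjusted p = 0.583). Leaving out pool 1 gave 0.054 and leaving out control 3 gave 0.20. For ACTN4 the values were 1700, 1687 and 2004 CPM and 1985, 1762 and 1809 CPM (0.04 ± 0.08, edgeR adjusted p = 0.860). In both genes the third control reached into or past the range of the KD pools. The share of ACTN1 in the TPM of the pair was 28.1 ± 0.56% in the controls and 28.9 ± 0.75% in the KD pools (SD, n = 3; exact permutation test, p = 0.2).

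The 95% intervals of the 9 members other than MYH9 all included 0. The widest was that of MYL9, from -0.11 to 0.38, and the narrowest ranges were those of the MYL12 genes and MYH10. The lowest bound among the 9 genes was that of MYH10, at -0.27, so that a log2 fold change of -0.29, the value of MYH9, lay outside all 9 intervals. The difference between MYH9 and the other members was not itself tested.

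**Figure D3:**
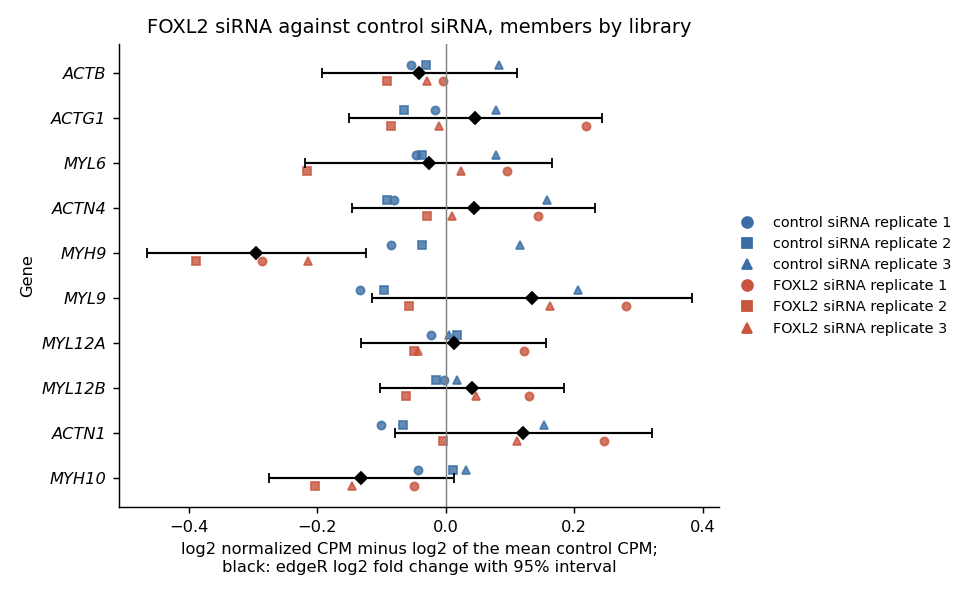
log2 normalized CPM of each library minus the log2 of the mean control CPM, for each of the 10 genes (blue, control siRNA; red, FOXL2 siRNA), with the edgeR log2 fold change and its 95% interval in black. The interval of MYH9 (-0.47 to -0.12) is the only one that does not reach 0.

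Within a condition most members were highest and lowest in the same libraries. In normalized CPM, control 3 was the highest of the 3 controls for 9 of 10 members, pool 1 was the highest of the 3 KD pools for 9, and pool 2 the lowest for all 10. Over all genes tested, these shares were 38.7%, 28.9% and 38.3%. The members are not independent of each other, and the difference from all genes was not tested. MYH9 shared this in the controls (control 3 highest) and in pool 2 (lowest), but among the KD pools it was highest in pool 3. Leaving out pool 2 changed the log2 fold change of MYH9 to -0.25 and leaving out control 3 to -0.24.

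Sums over the chains, formed after their values were seen and therefore given with no test, describe the balance of the motor's parts at the mRNA level. Heavy chains (MYH9 and MYH10) summed to 812, 870 and 931 TPM in the controls and 728, 700 and 750 TPM in the KD pools. Regulatory light chains (MYL9, MYL12A and MYL12B) summed to 1988, 2029 and 2155 TPM in the controls and 2313, 2079 and 2151 TPM in the KD pools. The former did not overlap between conditions, and the latter did.

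There were 2.45, 2.33 and 2.31 regulatory light chain transcripts per heavy chain transcript in the controls and 3.18, 2.97 and 2.87 in the KD pools. For the essential light chains (MYL6 and MYL6B) the ratio was 3.87, 3.65 and 3.57 in the controls and 4.67, 4.22 and 4.31 in the KD pools. Cytoplasmic actin transcripts per heavy chain transcript went from 18.4 ± 0.61 to 21.7 ± 0.87 (SD, n = 3). None of these ratios overlapped between conditions, and all have the same denominator, of which MYH9 is at least 95.7%. They are mRNA ratios and do not give the ratio of the proteins.

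**Figure D4:**
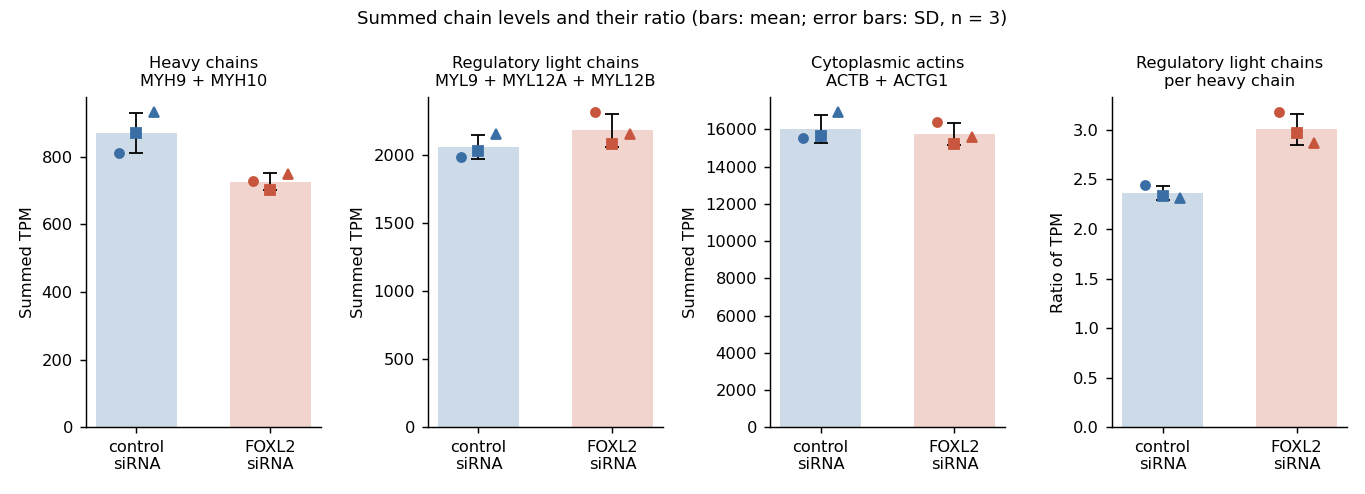
Summed TPM of the heavy chains, regulatory light chains and cytoplasmic actins, and regulatory light chain TPM per heavy chain TPM, in control siRNA (blue) and FOXL2 siRNA (red) libraries; bars are means, error bars SD (n = 3) and points libraries. Heavy chains (700 to 750 against 812 to 931 TPM) and the ratio (2.87 to 3.18 against 2.31 to 2.45) separate the conditions, and the light chains and actins do not.

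The effective length, which RSEM derives for a gene from the transcripts it assigns the reads to, was compared as a readout of transcript use. For 1 of 10 members, ACTB, the conditions did not overlap, with 1546, 1543 and 1547 bases in the controls and 1562, 1596 and 1563 bases in the KD pools. Over all genes tested the effective lengths did not overlap for 9.97%, so that this count was at the background. The p of ACTB was the smallest the design allows (exact permutation test, p = 0.1; 0.667 after Benjamini-Hochberg adjustment over 10 genes). The effective length of MYH9 was 6087 ± 99.0 bases in the controls and 6088 ± 104 bases in the KD pools (SD, n = 3). Pool 2 had the longest effective length of the 6 libraries for 28.3% of all genes tested and pool 3 for 31.7%, against 8.97 to 11% for each of the other 4 libraries.

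MYH9 was compared with every other gene tested by its profile over the 6 libraries, as the root mean square difference of centred log2 CPM. The 5 closest genes were TRNP1 (0.027), LINC00595 (0.030), MICAL3 (0.034), CHERP (0.037) and BAG3 (0.039), against a median of 0.21 over 15662 genes. MICAL3 encodes a monooxygenase of a family that oxidizes actin, and BAG3 a co-chaperone of filamin turnover. Whether genes linked to actin are more frequent among near profiles was not tested. LINC00595 was low, at 1.12 to 1.79 normalized CPM. MICAL3 had 109, 106 and 118 normalized CPM in the controls and 90.9, 83.0 and 94.7 in the KD pools. None of the 5 was called by edgeR (adjusted p 0.127 to 0.415), and 489 genes came within 0.1 of MYH9. The nearest member was MYH10, at rank 604, and the farthest was MYL9, at rank 9152.

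The other genes of the actomyosin system were taken as 10 lists with 144 genes, of which 110 had enough reads to be tested. None was called by edgeR, and 11 were lower and 5 higher at an unadjusted p below 0.05 (16 of 110, against 13.5% of all genes tested). DESeq2 called 3 lower and 1 higher (4 of the 102 to which it gave an adjusted p, against 3.06% of all such genes, so that the count was near the background). With effective-length offsets it called 4 lower (ARPC5, PTK2, MYO10 and TWF1) and 2 higher (ACTA2 and ACTG2), or 6 of 104 with an adjusted p, against 2.86%. The median log2 fold change of the 110 genes was -0.01. Among them, the CPM of the conditions did not overlap for 22, against the 20.5% of all genes tested.

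ARPC5, a subunit of the Arp2/3 complex that nucleates branched actin, had the smallest p of all these genes. It stood at 333, 347 and 331 TPM in the controls and at 228, 242 and 228 TPM in the KD pools, with no overlap. Its log2 fold change was -0.42 ± 0.07 (95% interval -0.57 to -0.27), just short of a call in edgeR (adjusted p = 0.0510) and called by DESeq2 (adjusted p = 2.49e-05). With effective-length offsets edgeR called it too (adjusted p = 0.00653). Its effective length was 989 to 1053 bases in the controls and 1066 to 1224 bases in the KD pools. Of the 17 nucleator genes, 7 had a log2 fold change below 0 and 10 above, and the most abundant, ARPC2, another subunit of the same complex, had 576 ± 16.7 TPM in the controls and 560 ± 14.9 TPM in the KD pools (SD, n = 3; log2 fold change -0.03).

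Focal adhesions anchor actomyosin bundles to the matrix. PTK2, the focal adhesion kinase, had 61.7, 64.5 and 67.8 TPM in the controls and 49.0, 51.7 and 46.3 TPM in the KD pools. Its log2 fold change was -0.42 ± 0.09 (edgeR adjusted p = 0.108, DESeq2 adjusted p = 0.00166). The most abundant gene of this list, the integrin ITGB1, was at 938 ± 39.1 TPM in the controls and 908 ± 80.6 TPM in the KD pools (SD, n = 3), and its conditions overlapped. Of the 12 genes, 1 was called lower by DESeq2 and none higher, against 3.06% called in either direction over all genes with an adjusted p.

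Muscle isoforms were mostly absent. Of 19 muscle myosin II chains, 6 could be tested, and the most abundant, MYL5, had 7.75 ± 1.07 TPM in the controls and 8.60 ± 1.14 TPM in the KD pools (SD, n = 3). The smallest p of this list was that of MYH7B (log2 fold change -0.34 ± 0.36, edgeR adjusted p = 0.715), which was under 1 TPM in every library. Of 6 muscle actins and alpha-actinins, only the smooth muscle actins ACTA2 and ACTG2 could be tested.

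ACTA2 had 208, 207 and 266 TPM in the controls and 351, 291 and 280 TPM in the KD pools. Its log2 fold change was 0.44 ± 0.14 (edgeR adjusted p = 0.233, DESeq2 adjusted p = 0.0331). With a replicate block DESeq2 did not call ACTA2 (0.43 ± 0.22, adjusted p = 0.453). ACTG2 had 6.31, 5.76 and 9.44 TPM and 16.5, 11.4 and 11.3 TPM, and a log2 fold change of 0.70 ± 0.21 (edgeR adjusted p = 0.213, DESeq2 adjusted p = 0.0515). With effective-length offsets DESeq2 called ACTG2 as well (0.86 ± 0.24, adjusted p = 0.0165). For both genes all KD libraries were above all controls. The conditions did not overlap, in either direction, for 20.5% of all genes tested. Beside them, 3 of 7 smooth muscle markers had at least 1 TPM, ACTG2 among them. The summed level of the list was 112, 114 and 126 TPM in the controls and 124, 119 and 122 TPM in the KD pools. Most of it was SMTN, with 101, 103 and 110 TPM in the controls and 101, 100 and 105 TPM in the KD pools. Of the 4 markers tested, 3 had a log2 fold change above 0 and 1 below, with a median of 0.25. MYOCD was at 0. MYH11, the smooth muscle heavy chain, had 0.55 to 1.54 TPM.

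Many unconventional myosins move cargo or membranes. Of 14 tested, 5 were lower at an unadjusted p below 0.05 (MYO9A, MYO9B, MYO10 and MYO18A among them) and none was higher, against 6.88% of all genes that were below this p and lower. The same number, all lower, did not overlap between conditions, against 20.5% of all genes in either direction. DESeq2 called 1 of the 11 to which it gave an adjusted p (against 3.06% of all such genes), MYO10, the motor of filopodia, which had 41.4, 34.7 and 32.7 TPM in the controls and 24.0, 31.0 and 28.8 TPM in the KD pools (log2 fold change -0.38 ± 0.11; edgeR adjusted p = 0.213, DESeq2 adjusted p = 0.0325). The most abundant, MYO1C, had a log2 fold change of -0.02 ± 0.07.

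Filament-binding proteins and the SRF genes held no call by edgeR or DESeq2, with or without effective-length offsets. Among the turnover proteins, TWF1, a twinfilin that binds actin monomers, was called by DESeq2 with offsets (log2 fold change -0.31 ± 0.08, adjusted p = 0.00802), and not without them (0.08, adjusted p = 0.905). Of 18 filament-binding and crosslinking genes, FSCN1, the fascin of filopodial bundles, had the smallest p (log2 fold change 0.17 ± 0.08, edgeR adjusted p = 0.418), and TAGLN2 was the most abundant, at 1409 ± 36.6 TPM in the controls and 1443 ± 52.2 TPM in the KD pools (SD, n = 3). Of 21 monomer and turnover genes, 2 were lower and 2 higher at an unadjusted p below 0.05, which was near the background of 13.5%. The smallest p was that of CAPZA1, a capping protein subunit (log2 fold change 0.24 ± 0.10, edgeR adjusted p = 0.328). TMSB10, a thymosin that binds actin monomers, was the most abundant, with 9580 ± 365 TPM in the controls and 9406 ± 429 TPM in the KD pools (SD, n = 3). SRF, the transcription factor that many actin genes answer to, had 22.0 ± 1.53 TPM in the controls and 25.4 ± 1.89 TPM in the KD pools (SD, n = 3; log2 fold change 0.17 ± 0.08, edgeR adjusted p = 0.378).

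**Figure D5:**
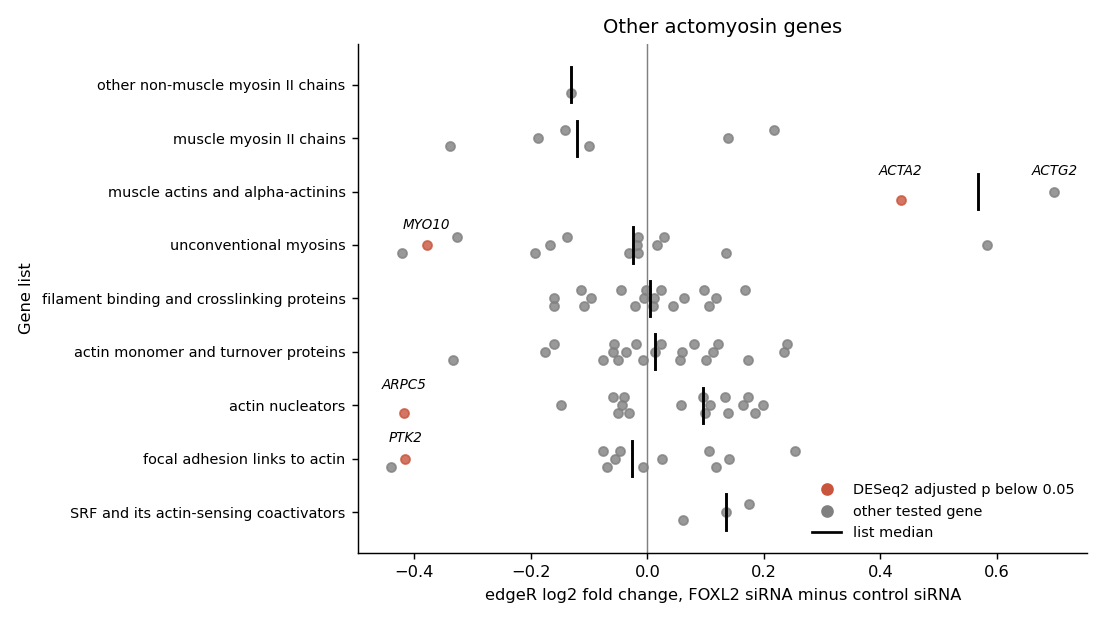
edgeR log2 fold change (FOXL2 siRNA minus control siRNA) of each tested gene of 9 of the 10 actomyosin lists, with the list median as a black bar; red points have a DESeq2 adjusted p below 0.05. The red points are ARPC5, PTK2, MYO10 (lower) and ACTA2 (higher), and most genes lie near 0.

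Most markers of other cell types had a mean below 1 TPM. In the fibroblast and theca list, 3 of 6 genes had at least 1 TPM. COL1A1, the most abundant of the fibroblast and theca list, had 4743 to 5634 TPM, and the theca genes CYP17A1 and INSL3 were at most 0.05 TPM. Endothelial, epithelial and erythroid lists summed to at most 3.38, 2.57 and 0.65 TPM in any library. TEK (endothelial) and KRT19 (epithelial) had a mean of at least 1 TPM. In the leukocyte list 1 of 5 genes, CD68, was above 1 TPM on average, and it was lower in the KD pools (76.3, 71.9 and 85.2 TPM against 52.2, 60.9 and 69.8 TPM; log2 fold change -0.29 ± 0.09, edgeR adjusted p = 0.233). PTPRC, which marks leukocytes in general, did not pass 1.01 TPM, and CD3E was at 0. The log2 fold change of CD68 was close to that of MYH9, and its part in that difference was not tested.

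The promoter of MYH9 is shown, as the member with the largest difference between conditions. It holds the 250 bases before the start site, from RefSeq on GRCh38.p14, chr22:36387968-36388217, minus strand, with GGGCGG and its reverse complement in capitals.
MYH9: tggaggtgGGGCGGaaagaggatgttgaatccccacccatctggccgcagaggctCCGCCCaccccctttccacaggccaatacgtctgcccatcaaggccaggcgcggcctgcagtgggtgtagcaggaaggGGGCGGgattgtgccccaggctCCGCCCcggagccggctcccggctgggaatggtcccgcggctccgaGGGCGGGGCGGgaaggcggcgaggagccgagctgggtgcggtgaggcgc
GGGCGG, the core of the GC box, occurred 4 times on this strand and 2 times on the other, with 1 base shared by 2 of the matches. It was found in 45.0% of 35116 promoters of 300 bases (250 before and 50 after the start), on either strand. The window was 71.6% G and C.

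The forkhead sequence GTAAACA and its core TAAACA were searched on both strands in the same windows. Neither occurred in the MYH9 promoter. The promoters of ACTB and MYL9 were not searched. GTAAACA was in none of the 16 windows of the other 8 members (3.42% of all promoters held it), and TAAACA was in 1, of MYL12A (12.3% of all promoters). The CArG box, the sequence bound by SRF, was found in 1 window each of ACTN1 and ACTG1, and in 1.29% of all promoters. The 30 bases around each are given with the CArG box in capitals.
ACTN1, chr14:68977718-68977747, minus strand: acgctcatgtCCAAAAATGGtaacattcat
ACTG1, chr17:81512874-81512903, minus strand: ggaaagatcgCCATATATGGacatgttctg
These matches are descriptions of letters and not of binding. Neither ACTN1 nor ACTG1 was called, as given above.

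The study addressed RNA rich in G doublets. The principal coding transcript of each member was therefore searched on its own strand for 8 GG doublets separated by 1 to 4 bases. It held none in MYH9, MYH10, MYL6, MYL9, MYL12A, ACTB and ACTN1. There were 3 matches in MYL12B and 13 in ACTG1, both with the shortest before the coding part, and 3 in ACTN4, the shortest after it. Overlapping matches were counted apart. The background was drawn otherwise, from the longest coding transcript of each of 12627 genes tested. Of these, 21.4% held at least 1 match. As the choice of transcript differs, this share is only a rough measure beside the members.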

How the data were processed

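RNA-seq libraries of KGN cells (3 FOXL2 siRNA, 3 control siRNA) were grouped by the treatment label. Per the study's methods, the authors sequenced stranded mRNA libraries (single reads of 75 bases), aligned them with STAR 2.7.6a, checked them with Picard 2.8.1 and estimated expression with RSEM 1.3.1. The deposited expected counts are RSEM estimates that need not be whole (66.8 to 69.1% of those above 0 were, within 0.005), and the deposited TPM values are per transcript length, scaled by the authors to a fixed total in each library. RSEM length and effective length, also deposited by the authors, were used as they stood, and FPKM was not used. The submitters' processing notes name the mouse build GRCm38, but the gene identifiers are human, so the build and annotation used are uncertain. Ambiguous reads are shared out by RSEM, which matters for near-identical genes.

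Expected counts were rounded. Genes passing filterByExpr (15663) were tested with edgeR 4.0.16 (TMM scaling, quasi-likelihood test, no block) in R 4.3.3. P-values were adjusted by Benjamini-Hochberg and called below 0.05. Normalized CPM are TMM-scaled. DESeq2 1.42.0 ran on all rounded genes. The authors used DESeq2 1.26.0. Intervals are 95%. Shares and lengths were compared by exact permutation tests (scipy 1.17.1). The fit was tested on simulated data. Genes named were FOXL2, the members, MYH14, MYL6B, of each list the gene with the smallest p, the most abundant in the controls and any call, and the 5 profiles nearest MYH9 (log2 of CPM plus 0.5). Other genes named were chosen after their values were seen. The genes of 1 of the 10 lists are counted in the totals and not reported here one by one. The members, lists and tests were chosen with earlier results of these data known. Depth was 23843192 to 28791954 counts per library, and intervals on a count of 0 cover counting error only. Alternatives were other tools, filters, scalings, a pseudocount scale (limma 3.58.1 on log2 of TPM plus 1), replicate blocks and libraries left out.

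The replicate numbers of the labels are those of the siRNA pools and were not treated as pairs. Reference sequences and promoters are from GRCh38 and GENCODE or RefSeq, and motif searches used them only.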

Additional observations from a re-analysis of the deposited data

How the results depend on the processing

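FOXL2 kept its direction under all 17 alternatives, from -2.03 to -1.36 on the log2 scale (-2.03 to -1.78 with a library left out), and stayed past the threshold wherever an adjusted p was given. DESeq2 with a replicate block gave it none. MYH9 was lower under all 17 alternatives (-0.34 to -0.24, also the range with a library left out). It passed the threshold in DESeq2 (-0.30), DESeq2 with effective-length offsets (-0.27) and DESeq2 with a replicate block (-0.30, adjusted p = 0.00304), and in no other. With each library left out in edgeR its adjusted p ran from 0.0665 to 0.472. Members called were therefore 1 in these 3 fits and 0 in all others, also with each library left out (0 to 0). The older quasi-dispersion estimate of edgeR was chosen after seeing the data.

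Calls across all genes were 353 in DESeq2, 346 in DESeq2 with effective-length offsets, 70 without the low-count filter, 64 where the mean had to reach 50 counts and 13 in limma on log2(TPM + 1). With a library left out they ran from 2 to 579, the highest without FOXL2 siRNA replicate 2 (pool 2) and 105 without replicate 1. Pathway genes called were 4 in DESeq2, 6 in DESeq2 with offsets, 1 each in edgeR with offsets, without the filter, with the minimum of 50 counts and in limma on TPM (ARPC5 in each), and 0 to 6 with a library left out, again highest without pool 2. The cause of these differences was not tested.

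The labels do not say whether the replicate numbers pair the libraries. Correlations of the deviations of same-numbered libraries were -0.053, 0.054 and 0.068. Those of libraries with different numbers ran from -0.142 to 0.112. With so few libraries per condition, these values cannot decide whether the libraries were paired. A replicate block left 11 calls in edgeR and 189 in DESeq2, with 3 pathway genes in the latter. The block gave the same mean share differences (-0.20 percentage points for MYH9, exact sign-flip test p = 0.5).

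Members with small changes turned sign. ACTG1 was at -0.013 in DESeq2 with offsets, -0.0076 in edgeR with offsets and -0.0084 in limma on TPM, and ran from -0.048 to 0.104 with a library left out. MYL9 (0.056 to 0.25) and ACTN1 (0.054 to 0.20) kept their sign with a library left out. In the same fits MYL6 ran from -0.092 to 0.055, MYL12A from -0.047 to 0.038, MYL12B from -0.0062 to 0.085, ACTN4 from -0.010 to 0.127, the summed actins from -0.057 to 0.028 and the summed MYL12 pair from -0.024 to 0.064. The difference in the share of MYH9 ran from -0.41 to 0.029, that of ACTB from -1.37 to 0.71, that of MYL12A from -0.76 to -0.013 and that of ACTN1 from 0.53 to 1.26 percentage points. With a library left out, members whose effective lengths did not overlap numbered 1 to 3. The share over all genes tested (9.97%) is for all 6 libraries only, so that these counts have no background beside them. TWF1 turned from 0.08 to -0.31 in DESeq2 with offsets (called, adjusted p = 0.00802), -0.30 in edgeR with offsets and -0.29 in limma on TPM, and ran from -0.22 to 0.22 with a library left out.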

Other observations

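A pair of actin-linked genes had values that set KD pools apart from each other, and both were named after their values were seen. FERMT2 encodes kindlin-2, which activates integrins at adhesions. It had 146, 149 and 134 normalized CPM in the controls, 183 in pool 1, and 59.8 and 73.5 in pools 2 and 3. Pools 2 and 3 share an siRNA that pool 1 did not contain, and the part of that siRNA in these values was not tested. Without pool 1 the log2 fold change of FERMT2 was -1.10 (edgeR adjusted p = 0.00329), without pool 2 it was -0.16 (edgeR adjusted p = 0.826) and without pool 3 -0.24 (edgeR adjusted p = 0.803). With all libraries it was -0.44 ± 0.34 (adjusted p = 0.612, edgeR), so that no call was made.

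TWF1 encodes twinfilin, which binds actin monomers. It had 107, 110 and 102 normalized CPM in the controls and 90.1, 154 and 93.6 in the KD pools, with pool 2 the highest of all libraries. In TPM, which allows for transcript length, it had 127, 130 and 117 in the controls and 94.8, 106 and 104 in the KD pools, all below the controls. Its effective length was 2281 bases in pool 2, 1335 and 1392 bases in the other KD pools and 1249 to 1263 bases in the controls. Once effective lengths entered the fit, DESeq2 called TWF1 lower (-0.31, adjusted p = 0.00802). The same offsets in edgeR gave -0.30 with no call (adjusted p = 0.117). MYH10 had its longest effective length in pool 2 as well.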
